A study of Rattus norvegicus with 4 samples.

Results

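The comparison described here set rat skeletal muscle of a group given ischemia and electrical stimulation (ES) against rat skeletal muscle of a group given ischemia and exercise. One oligonucleotide array stood for each group, so 2 of the 4 arrays of the series carried the comparison. Each gene was represented by its brightest probe set, signals below the pooled median of the 4 arrays, 30.1, were raised to this value (the floor), and the log2 ratio of ES over exercise was taken. A gene was called higher or lower where the floored signals of the 2 arrays differed by 2-fold or more. By this rule 409 of 10092 genes were called, of which 298 were higher with ES (2.95% of the genes compared) and 111 were lower (1.1%). As each group has a single array, the differences have no check by replicates, and p-values were not computed. A gene at the floor on 1 of the 2 arrays has only a bound on its ratio, written as "at least". Such bounds made up 60 of the 298 higher genes and 21 of the 111 lower genes.

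All rats were of the strain F344/DuCrlCrlj, and the 4 groups were titled ischemia + ES, ischemia + exercise, ischemia and sham. Both groups of the comparison were ischemic, so neither array shows the muscle without ischemia. The series set out to see how contraction driven through the nerve acts on an ischemic hindlimb in a rat model of intermittent claudication, which is leg pain on walking caused by poor arterial supply. The sources used here do not give the muscle sampled, the number or age of the animals, any pooling of RNA, or how and when ES and exercise were applied.

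Adult skeletal muscle is a mosaic of slow fibres, which carry their own isoforms of myosin, troponin and tropomyosin and rely on oxidative metabolism, and fast fibres, which carry a second set of isoforms and rely more on glycolysis. Injured muscle rebuilds fibres from satellite cells, and new fibres pass through embryonic and perinatal myosin isoforms before the adult ones appear. Such repair involves macrophages, matrix-forming fibroblasts and the capillary bed, all of which contribute RNA to a piece of whole muscle.

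The defining markers of skeletal muscle were bright on both arrays, with a summed signal of 165222 with ES and 160985 with exercise. All 18 were compared and 0 passed 2-fold, with log2 ratios between -0.42 and 0.33 and a median of 0.02. Whether ratios are compressed at such brightness was not tested, so the count of 0 does not show that they were level. The ES array stood further from the other 3 arrays than they stood from each other. It differed by 2-fold in 409 genes from the exercise array, in 310 from the ischemia array and in 488 from the sham array, while the other pairs differed in 45 to 203 genes. The median signal was 31.8 on the ES array and 30.3 on the exercise array. The ratio of 3' to 5' actin probe sets, a sign of RNA integrity, was 5.94 on the ES array and 4.34 on the exercise array, and 3.81 to 4.38 on the others. The same ratio for GAPDH was 1.26 with ES and 1.16 with exercise. The 18 spiked-in control probe sets had log2 ratios between -0.04 and 0.16 (median 0.10), and 0 passed 2-fold. Over all genes compared the median log2 ratio was 0.03. The part of these array-wide differences in the results was not tested.

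**Figure D1:**
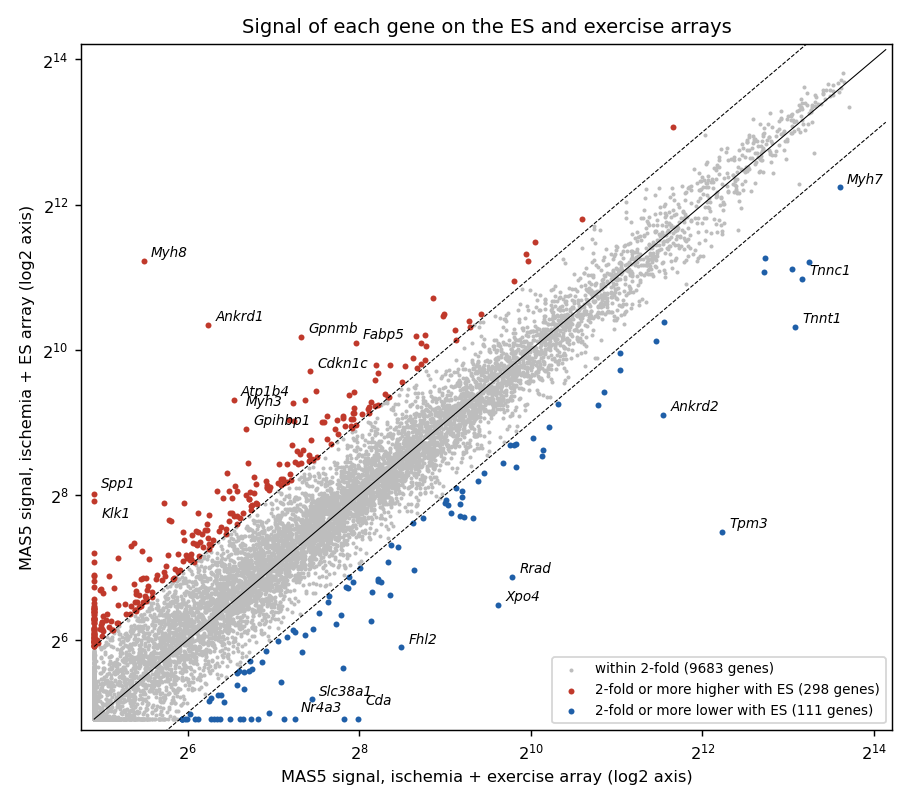
Signal of each of the 10092 genes on the ischemia + ES array (vertical, log2 axis) against the ischemia + exercise array (horizontal, log2 axis), floored at 30.1. Red points are the 298 genes higher with ES, blue points the 111 genes lower with ES, and the dashed lines mark 2-fold. Myh8 and Ankrd1 lie farthest above the diagonal, and Tpm3 farthest below it.

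The genes lower with ES were led by the contractile apparatus of slow fibres. Of the 10 slow-twitch genes compared, 8 were lower with ES by 2-fold or more, 0 were higher, and all 10 had a ratio below 0. The median log2 ratio of the list was -1.78, against 0.03 over all genes. In bulk tissue, fewer slow fibres and less of these transcripts per fibre cannot be told apart.

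The slow troponin genes encode the 3 subunits that couple calcium to contraction in slow fibres. For Tnnt1, slow troponin T, the signal was 1278 on the ES array, 8659 on the exercise array, 676 on the ischemia array and 6702 on the sham array. Tnnt1 was thus 6.78-fold lower with ES than with exercise, and only the ischemia array was lower still. For Tnnc1, the troponin C of slow and cardiac muscle, the signal was 2013 on the ES array, 9176 on the exercise array, 1062 on the ischemia array and 8049 on the sham array, a 4.56-fold lower level with ES. For Tnni1, slow troponin I, the signal was 2224 on the ES array, 8435 on the exercise array, 977 on the ischemia array and 6929 on the sham array, a 3.79-fold lower level with ES. All 3 subunits had the same order of arrays, with exercise highest, then sham, then ES, then ischemia.

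Myosin genes of slow fibres had the same order of arrays. Myh7 encodes the slow myosin heavy chain, and the signal was 4827 on the ES array, 12422 on the exercise array, 2970.4 on the ischemia array and 11339.8 on the sham array. Its representative probe set was 2.57-fold lower with ES, and a dimmer probe set of the gene gave a log2 ratio of -3.90. Of the slow light chains, Myl2 was lower by 2-fold and Myl3 was not. Myl2 had a signal of 2455 with ES, 6814 with exercise, 995 with ischemia alone and 6516 with sham (log2 ratio -1.47), and Myl3 had 4967 with ES, 8949 with exercise, 2549.6 with ischemia alone and 7677 with sham (log2 ratio -0.85). Atp2a2, the calcium pump of the slow and cardiac sarcoplasmic reticulum, had a signal of 2363 with ES, 9694 with exercise, 1405 with ischemia alone and 8479 with sham. It was 4.1-fold lower with ES (log2 ratio -2.04), and its 3 other probe sets had smaller log2 ratios of -1.46, -1.32 and -1.16. The last of these is a bound, as that probe set was under the floor with ES. Myoz2, the calcineurin-binding calsarcin of slow fibres, had a signal of 2160.3 with ES, 6725 with exercise, 637 with ischemia alone and 6181 with sham, which put it 3.11-fold lower with ES. Casq2, the calsequestrin of slow and cardiac muscle, was close on the 2 arrays at 746 with ES and 936 with exercise, and well below both at 171 on the ischemia array.

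Tpm3, the slow tropomyosin gene, had the lowest ratio of all genes above the floor on both arrays. For Tpm3 the signal was 180.1 on the ES array, 4794 on the exercise array, 160.2 on the ischemia array and 3756 on the sham array, a 26.6-fold lower level with ES. The other 6 Tpm3 probe sets had log2 ratios between -0.72 and -0.01, so the fold of this gene rests on 1 probe set. Those at the -0.01 end were under the floor with ES and just above it with exercise, so their ratios are bounds. Summed over the 10 slow-twitch genes, the signal was 23214 on the ES array, 76603 on the exercise array, 11603 on the ischemia array and 66333 on the sham array. The exercise array lay near the sham array in this sum, and the ES array lay between those and the ischemia array.

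Of 17 fast-twitch genes compared, 0 passed 2-fold in either direction, and their median log2 ratio was 0.07. Myh4, the fastest myosin heavy chain, had a signal of 10366 with ES, 13339 with exercise, 13178 with ischemia alone and 12841 with sham (log2 ratio -0.36). Myh2 and Myh1, the other fast heavy chains, had log2 ratios of 0.44 and 0.45. Pvalb, the calcium buffer of the fastest fibres, had a signal of 6738 with ES, 10059.6 with exercise, 11901 with ischemia alone and 9607 with sham, with a log2 ratio of -0.58. Signals of the 17 genes lay between 6496 and 13339 on all 4 arrays, close to the highest signal of any gene, 14335. Only 155 of the 10092 genes reached the lower of these values on any array. Myh7, in this range on the exercise and sham arrays, had a log2 ratio of -1.36, against -3.90 on its dimmer probe set, and whether ratios are compressed at this brightness was not tested. The count of 0 therefore does not show that the fast-twitch genes were level. Among dimmer probe sets, Mybpc2 had a log2 ratio of -0.61 and the 4 of Myh1 had -0.63, 0.29, 0.52 and 0.66. The near-identical myosin genes can share labelled RNA between probe sets.

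Genes of developing and regenerating fibre had the highest median ratio of the 38 lists. The lists were chosen with earlier results of these data known, so the rank only describes them. This list also holds genes of growth and cell cycle arrest, and Cdkn1a, Cdkn1c, Igf2 and Dlk1 are among its higher genes. Of the 17 genes compared from the list of developing and regenerating fibre, 10 were higher by 2-fold or more, 0 were lower, and the median log2 ratio was 1.42. Myh8 encodes perinatal myosin heavy chain, and the signal was 2393 on the ES array, 45.0 on the exercise array, 86.4 on the ischemia array and 36.9 on the sham array. Its 53.2-fold higher level with ES was the highest ratio in the comparison, and the other 3 arrays lay within a factor of 2.34 of each other. Myh3 encodes the embryonic heavy chain, with a signal of 617 with ES, 149.6 with exercise, 179.8 with ischemia alone and 169.8 with sham. It was 4.13-fold higher with ES, and the other 3 arrays were close together. Myl4, the embryonic and atrial light chain, had a signal of 887 with ES, 329 with exercise, 546 with ischemia alone and 419 with sham, with a log2 ratio of 1.43. Tnnt2, the cardiac troponin T that developing skeletal fibres also make, had a signal of 113 with ES, 20.7 with exercise, 37.5 with ischemia alone and 34.1 with sham, at least 3.74-fold higher with ES.

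**Figure D2:**
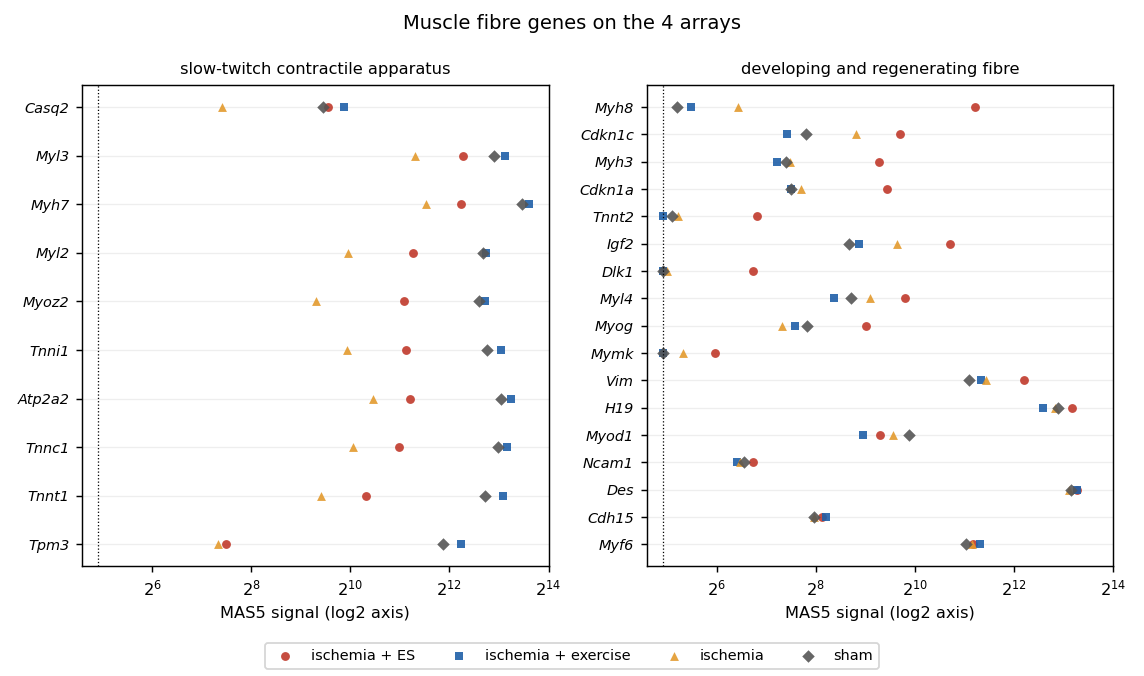
MAS5 signals (log2 axis) of the 10 slow-twitch genes and the 17 genes of developing and regenerating fibre on the ischemia + ES, ischemia + exercise, ischemia and sham arrays, 1 point per array, with values under the dotted floor of 30.1 drawn at it. In the slow-twitch list the ES points lie between the ischemia points and the exercise and sham points for most genes, and in the other list the ES point lies to the right of the rest for Myh8, Myh3 and Cdkn1a.

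The regulators of fibre formation were part of this group. Myog, the transcription factor that drives myoblast differentiation, had a signal of 514 with ES, 192 with exercise, 159 with ischemia alone and 228 with sham. It was 2.68-fold higher with ES, and the ischemia array was the lowest of the 4. Mymk, the membrane protein that lets myoblasts fuse, had a signal of 63.0 with ES, 6.95 with exercise, 40.0 with ischemia alone and 15.7 with sham, at least 2.09-fold higher with ES. Other myogenic genes were within 2-fold, with log2 ratios of 0.35 for Myod1, -0.14 for Myf6, -0.09 for the satellite cell cadherin Cdh15 and 0.32 for Ncam1.

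A pair of cyclin-dependent kinase inhibitors that accompany withdrawal from the cell cycle were among the 15 highest ratios. Cdkn1c had a signal of 834 with ES, 172 with exercise, 447 with ischemia alone and 224 with sham, 4.85-fold higher with ES. Cdkn1a, which encodes p21, had a signal of 694 with ES, 180.5 with exercise, 207 with ischemia alone and 182 with sham, 3.85-fold higher with ES, with the other 3 arrays level. The growth factor Igf2 had a signal of 1680.0 with ES, 466 with exercise, 802 with ischemia alone and 408 with sham, a log2 ratio of 1.85. Igf1, the growth factor that muscle makes during loading and repair, had a signal of 1096 with ES, 423 with exercise, 623 with ischemia alone and 567 with sham, which is 2.59-fold higher with ES. It was the only 1 of 17 genes compared from the growth hormone, IGF1 and cytokine signalling list to pass 2-fold on its brightest probe set. A dimmer probe set of the growth hormone receptor Ghr had 57.9 with ES and 148 with exercise, a log2 ratio of -1.35. The median log2 ratio of that list was 0.00, and 2.95% of all genes were higher. Cish, a cytokine-induced inhibitor of signalling, was low on both treated arrays, at 60.5 with ES, 99.2 with exercise, 355 with ischemia alone and 292 with sham, and the 2 treated arrays differed by a log2 ratio of -0.71.

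Proliferation genes were higher with ES in smaller numbers. Of 15 cell cycle genes compared, 4 were higher and 0 were lower, against 2.95% and 1.1% of all genes. The list median was a log2 ratio of 0.63. Mki67, a marker of dividing cells, had a signal of 86.3 with ES, 9.75 with exercise, 40.5 with ischemia alone and 15.8 with sham, at least 2.86-fold higher with ES. Ccnd1, the cyclin that starts the cycle, had a signal of 261 with ES, 109 with exercise, 219.7 with ischemia alone and 171 with sham (2.39-fold higher with ES), while its 2 other probe sets were under 2-fold, with log2 ratios of 0.46 and 0.55. Stmn1, which destabilises microtubules, and Mcm6, a part of the replicative helicase, were 2.09-fold and 2.01-fold higher. Most mitotic genes of the list were under the floor on the exercise array, Cdk1 and Ccnb2 among them, so their ratios are bounds. A gene under the floor with exercise cannot have a log2 ratio below 0. The median of this list therefore says little about proliferation.

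At the neuromuscular junction, 2 of 14 genes compared were higher and 1 was lower, against 2.95% and 1.1% of all genes. The list median was a log2 ratio of 0.38. Chrnd, the delta subunit of the muscle acetylcholine receptor, had a signal of 265 with ES, 89.6 with exercise, 55.7 with ischemia alone and 132 with sham. It was 2.96-fold higher with ES, and the exercise array lay between the sham and ischemia arrays. Of the other receptor subunits, Chrna1 and Chrnb1 were within 2-fold, with a log2 ratio of 0.28 for Chrna1 and 0.28 for Chrnb1. Chrne was under the floor on the exercise array, and its log2 ratio of at least 0.88 is open upward. Gadd45a, a stress-induced regulator of growth arrest that denervated muscle also expresses, had a signal of 433 with ES, 173 with exercise, 242 with ischemia alone and 178 with sham and was 2.5-fold higher. Colq, the collagen tail that anchors acetylcholinesterase, was 2.19-fold lower with ES, with a signal of 47.9 with ES, 105 with exercise, 23.1 with ischemia alone and 73.4 with sham.

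Among Z-disc and mechanical stress genes, 1 of 18 compared was higher and 3 were lower, against 2.95% and 1.1% of all genes. The list median was a log2 ratio of -0.11. The ankyrin-repeat proteins of the sarcomere, which bind titin and respond to load, differed in opposite directions. For Ankrd1 the signal was 1298 on the ES array, 75.7 on the exercise array, 826 on the ischemia array and 77.7 on the sham array. It was 17.1-fold higher with ES, behind only Myh8, and its other probe set, under the floor with exercise, gave a log2 ratio of at least 3.72. For its slow-fibre relative Ankrd2 the signal was 549 on the ES array, 2978 on the exercise array, 137 on the ischemia array and 2141 on the sham array, a 5.43-fold lower level with ES. The ES and ischemia arrays were alike in having much Ankrd1 and little Ankrd2, and the exercise and sham arrays had the reverse.

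Fhl2 and Xirp1 were the other lower genes of that list. Fhl2, a LIM-domain cofactor of titin and of transcription factors, had a signal of 59.8 with ES, 359 with exercise, 32.1 with ischemia alone and 214 with sham. It was 6-fold lower with ES, and its other probe set, under the floor with ES, gave a bound, a log2 ratio of -2.24 or lower. Xirp1, an actin-binding protein of muscle remodelling, had a signal of 441 with ES, 1046 with exercise, 362 with ischemia alone and 744 with sham and was 2.37-fold lower. Csrp3, the muscle LIM protein, and the small heat shock protein Hspb7 were lower without reaching 2-fold, with log2 ratios of -0.58 and -0.67.

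The promoters of Fhl2 and Xirp1 are printed because both genes were lower with ES and both hold a match to a site of MEF2, a transcription factor of muscle genes. Each is the 250 bases before the transcript start in RefSeq GRCr8, read 5′ to 3′ on the gene's strand, with motif matches in capitals. Of the 2 promoters of Fhl2 and the 3 of Xirp1 in the table, the one with the most matches is shown. Fhl2 is at chr9:52954541-52954790 on the minus strand. In it the first run of capitals is a CArG box, the site of serum response factor, 95 to 86 bases before the start, and the second is the MEF2 site, 30 to 21 bases before it. Xirp1 is at chr8:128635012-128635261 on the minus strand, and the capitals are a MEF2 site 82 to 73 bases before the start.
Fhl2: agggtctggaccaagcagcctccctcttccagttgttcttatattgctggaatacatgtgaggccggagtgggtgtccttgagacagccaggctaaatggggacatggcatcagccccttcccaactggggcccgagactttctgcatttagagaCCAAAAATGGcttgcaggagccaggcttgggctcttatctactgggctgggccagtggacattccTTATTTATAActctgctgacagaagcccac
Xirp1: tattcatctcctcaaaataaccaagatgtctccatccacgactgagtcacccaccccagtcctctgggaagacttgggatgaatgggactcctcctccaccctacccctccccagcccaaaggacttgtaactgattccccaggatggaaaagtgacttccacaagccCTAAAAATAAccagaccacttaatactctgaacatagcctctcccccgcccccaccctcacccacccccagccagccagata
A MEF2 site was found in 5 of the 11 Z-disc and stress genes with a promoter in the table (45.5%), namely Fhl2, Hspb7, Smpx, Synpo2l and Xirp1, against 3.32% of 27457 genes. A CArG box was found in 3 of the 11, against 1.62% of all genes. Of the 5 genes with a MEF2 site, Smpx had a log2 ratio of 0.24, Synpo2l of -0.28 and Hspb7 of -0.67, so the match did not go with a single direction. In the slow-twitch list, 2 of 8 promoters held a MEF2 site, and 3 held the E-box CAGCTG bound by myogenic factors, which 12.9% of all genes hold. The matches are of letters on either strand, do not overlap one another in the promoters printed, and are not measured sites.

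Of 18 calcium handling and excitation genes, 2 were lower by 2-fold and 0 higher, against 1.1% and 2.95% of all genes. The list median was a log2 ratio of -0.24. Rrad encodes a small GTPase that inhibits voltage-gated calcium channels, and the signal was 117 on the ES array, 883 on the exercise array, 49.1 on the ischemia array and 459 on the sham array. It was 7.53-fold lower with ES, behind only Tpm3 and Xpo4 among genes above the floor on both arrays. Clcn1, the chloride channel that keeps the fibre membrane electrically stable, had a signal of 26.6 with ES, 61.4 with exercise, 59.7 with ischemia alone and 50.6 with sham, at least 2.04-fold lower with ES. Sln, an inhibitor of the calcium pump, was close on the 2 treated arrays at 665 with ES and 802 with exercise, although the ischemia array was at 68.2 and the sham array at 1420.0.

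Several capillary endothelial genes were higher with ES. Of 19 endothelial markers compared, 5 were higher by 2-fold or more, 0 were lower, 17 had a ratio above 0, and the median log2 ratio was 0.87. Their summed signal was 7692 on the ES array, 4299 on the exercise array, 3982 on the ischemia array and 3820.5 on the sham array, so the exercise, ischemia and sham arrays lay together and the ES array above them. Gpihbp1, which holds lipoprotein lipase on the capillary wall, had a signal of 482 with ES, 103 with exercise, 109.6 with ischemia alone and 86.8 with sham. It was 4.69-fold higher with ES, one of the 15 highest ratios. Cldn5, a tight-junction protein of endothelium, had a signal of 821 with ES, 297 with exercise, 298 with ischemia alone and 184 with sham, 2.76-fold higher. Sox18, an endothelial transcription factor, had a signal of 299 with ES, 136 with exercise, 100.3 with ischemia alone and 82.4 with sham, 2.2-fold higher. Btnl9 had a signal of 94.6 with ES, 25.8 with exercise, 28.6 with ischemia alone and 51.4 with sham, at least 3.14-fold higher. General endothelial markers came just under the threshold, with log2 ratios of 0.94 for Pecam1, 0.97 for Tie1 and 0.80 for Emcn, whereas Vwf had -0.20 and Plvap -0.09.

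The angiogenesis list had 4 of 20 genes higher with ES, 1 lower and a median log2 ratio of 0.49. The 4 higher genes were 3 receptors and the nitric oxide synthase, all expressed by endothelium. Kdr, the main receptor for vascular endothelial growth factor (VEGF), had a signal of 859 with ES, 407 with exercise, 461 with ischemia alone and 535 with sham, 2.11-fold higher with ES. Its co-receptor Nrp1 had a signal of 931 with ES, 437 with exercise, 639 with ischemia alone and 697 with sham, 2.13-fold higher, with the exercise array below the ischemia and sham arrays. The other probe set of Nrp1 was under 2-fold, with a log2 ratio of 0.50. Aplnr, the receptor of the peptide apelin, had a signal of 267 with ES, 95.3 with exercise, 93.5 with ischemia alone and 83.1 with sham, 2.8-fold higher. Nos3, the endothelial nitric oxide synthase, had a signal of 136 with ES, 67.6 with exercise, 71.0 with ischemia alone and 74.1 with sham, 2.01-fold higher, on the edge of the threshold. Among the ligands, Vegfa had a signal of 843 with ES, 764 with exercise, 557 with ischemia alone and 721 with sham (log2 ratio 0.14), and Vegfb, Cxcl12 and Apln had log2 ratios of 0.52, 0.23 and 0.88. Fgf1, a broadly acting growth factor, was 2.01-fold lower, with a signal of 128 with ES, 258 with exercise, 96.8 with ischemia alone and 203 with sham.

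Targets of the hypoxia-inducible factors had no common direction. Of 22 compared, 1 was higher and 1 lower, against 2.95% and 1.1% of all genes, and the median log2 ratio was -0.07. The vasodilator peptide Adm had a signal of 62.2 with ES, 30.5 with exercise, 34.9 with ischemia alone and 37.9 with sham, 2.04-fold higher with ES. Ankrd37 had a signal of 37.9 with ES, 81.9 with exercise, 73.8 with ischemia alone and 76.8 with sham, 2.16-fold lower. Hif1a itself had a signal of 644 with ES, 723 with exercise, 687 with ischemia alone and 589.8 with sham, a log2 ratio of -0.17.

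The sheet of matrix around vessels and fibres, the basement membrane, had 8 of 15 genes compared higher with ES by 2-fold or more and 0 lower. All 15 had a ratio above 0, and the median log2 ratio was 1.003. Col4a1 and Col4a2 encode the chains of the common type IV collagen. For Col4a1 the signal was 1416 on the ES array, 503 on the exercise array, 687 on the ischemia array and 397 on the sham array, 2.82-fold higher with ES. For Col4a2 the signal was 523 with ES, 146 with exercise, 183 with ischemia alone and 150.0 with sham, 3.59-fold higher. Nid2, which links laminin to type IV collagen, had a signal of 634 with ES, 165 with exercise, 246 with ischemia alone and 219 with sham and the highest ratio of the list, 3.83-fold. Col15a1 was 2.42-fold higher with a signal of 1059 with ES, 438 with exercise, 714 with ischemia alone and 514 with sham. The laminin chain Lamb1 was 2.38-fold higher with a signal of 880.3 with ES, 370.4 with exercise, 446 with ischemia alone and 402 with sham. The laminin chains Lama2 and Lamb2 were close to level, with log2 ratios of 0.27 for Lama2 and 0.03 for Lamb2. The summed signal of the 15 genes was 10858 on the ES array, 5956 on the exercise array, 6903 on the ischemia array and 5613 on the sham array.

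**Figure D3:**
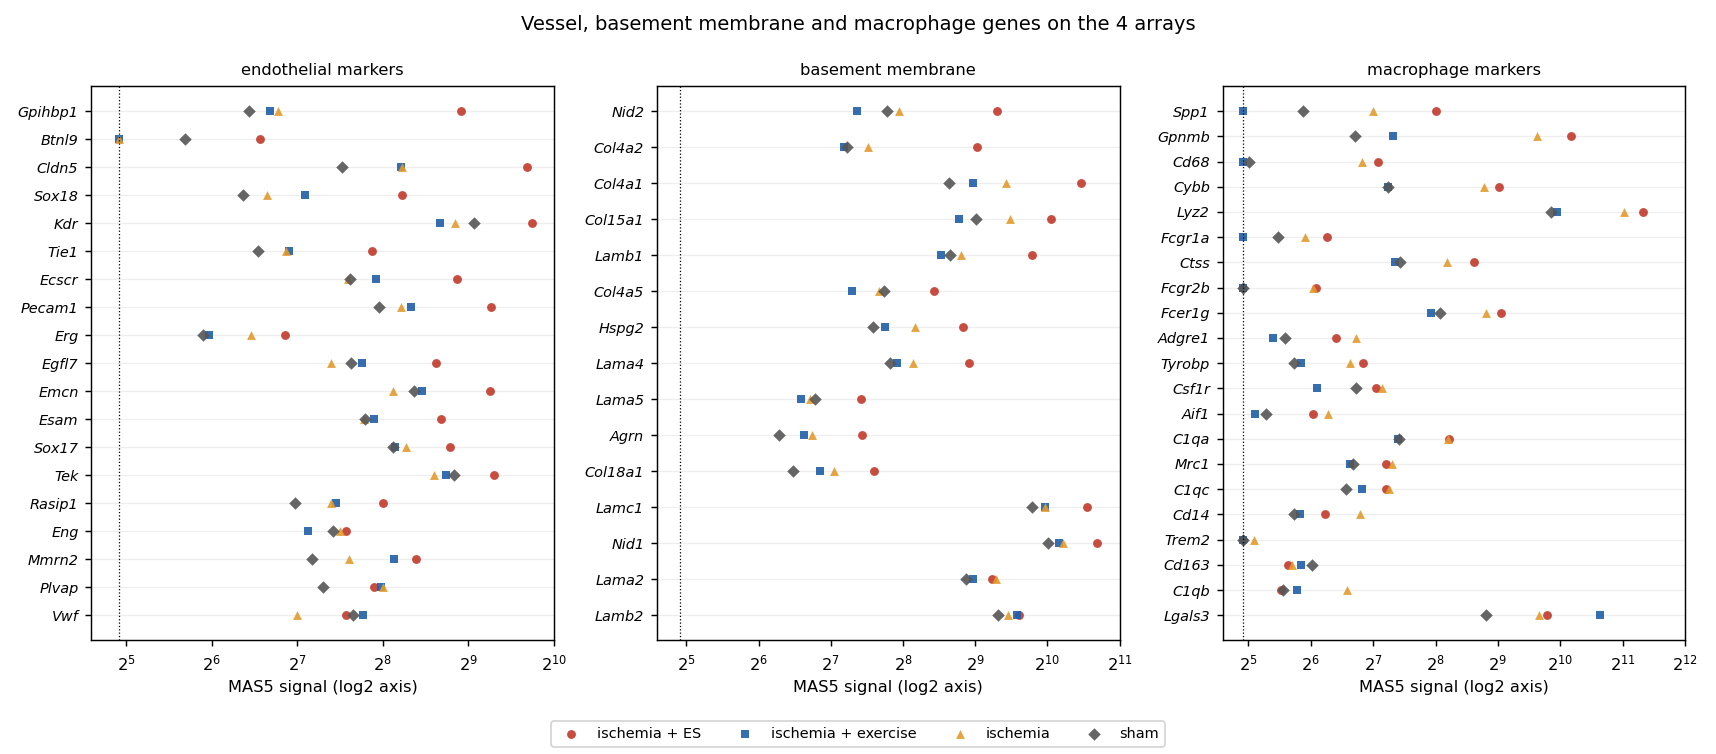
MAS5 signals (log2 axis) of 19 endothelial, 15 basement membrane and 21 macrophage genes on the ischemia + ES, ischemia + exercise, ischemia and sham arrays, 1 point per array, with values under the dotted floor of 30.1 drawn at it. The ES points lie to the right of the other 3 for Gpihbp1, Cldn5, Col4a1, Col4a2 and Nid2, while for Gpnmb, Cybb and Lyz2 the ES and ischemia points lie together to the right of exercise and sham.

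Of 17 markers of pericytes and smooth muscle, 0 were higher and 1 was lower, against 2.95% and 1.1% of all genes. The list median was a log2 ratio of 0.37. The lower gene was Lmod1, an actin-filament nucleator of smooth muscle, with a signal of 56.9 with ES, 162 with exercise, 133 with ischemia alone and 137 with sham, 2.84-fold lower with ES. The pericyte markers Rgs5 and Pdgfrb had log2 ratios of 0.87 and 0.78, and the smooth muscle actin Acta2 had 0.01.

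Many macrophage markers were higher with ES. Of 21 compared, 10 were higher by 2-fold or more, 0 were lower, and the median log2 ratio was 0.998. Their summed signal was 7762 on the ES array, 4157 on the exercise array, 6533 on the ischemia array and 3019.6 on the sham array, so the ES and ischemia arrays were high and the exercise and sham arrays low. Gpnmb, a glycoprotein of lysosome-rich macrophages, had the highest ratio among markers above the floor on both arrays, and the signal was 1158 on the ES array, 159.8 on the exercise array, 787 on the ischemia array and 105 on the sham array. It was 7.25-fold higher with ES. Spp1, the secreted matrix protein osteopontin, had a signal of 259 with ES, 25.7 with exercise, 128 with ischemia alone and 58.6 with sham, at least 8.59-fold higher with ES. Cd68, a lysosomal protein of macrophages, had a signal of 135 with ES, 28.8 with exercise, 114 with ischemia alone and 32.4 with sham, at least 4.49-fold higher. Cybb, the core of the phagocyte NADPH oxidase, had a signal of 521 with ES, 151 with exercise, 439.9 with ischemia alone and 151 with sham, 3.45-fold higher. Lysozyme, Lyz2, had a signal of 2553 with ES, 984 with exercise, 2073 with ischemia alone and 925 with sham, 2.59-fold higher, and the Fc receptor Fcgr1a was at least 2.55-fold higher with a signal of 76.8 with ES, 29.99 with exercise, 60.0 with ischemia alone and 44.7 with sham.

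Not all macrophage genes did the same. The resident-type markers Cd163 and Mrc1 had log2 ratios of -0.21 and 0.58, and the complement gene C1qb had -0.25. Lgals3, the lectin galectin-3, had a signal of 881 with ES, 1590.1 with exercise, 804 with ischemia alone and 449 with sham, so its log2 ratio was -0.85 and the exercise array was the highest of the 4. Trem2 was under the floor on both arrays. Mmp12, the elastase that macrophages secrete, had a signal of 146 with ES, 13.4 with exercise, 54.1 with ischemia alone and 7.20 with sham, at least 4.86-fold higher with ES.

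Other leukocyte genes were few above the floor. Of 15 lymphocyte markers in the list, 4 were compared, and Ccl5, Ptprc and Lck were higher with ES, with a list median of 1.29. Ccl5 was above the floor only on the ES array and entered the comparison through it, which fixed its direction. The median of these 4 genes therefore says little about lymphocytes. Ptprc, the CD45 protein of all leukocytes, had a signal of 116 with ES, 45.8 with exercise, 108 with ischemia alone and 60.6 with sham, 2.54-fold higher. The T-cell kinase Lck had a signal of 76.0 with ES, 32.1 with exercise, 37.5 with ischemia alone and 39.7 with sham, 2.37-fold higher, and the chemokine Ccl5 was at least 2.71-fold higher with a signal of 81.6 with ES, 24.02 with exercise, 28.8 with ischemia alone and 24.5 with sham. Of 4 neutrophil and mast cell markers compared, 0 passed 2-fold (median log2 ratio 0.03). Among 11 cytokines and chemokines compared 1 was higher and 0 were lower, against 2.95% and 1.1% of all genes, with a median of 0.26. The higher gene was Ccl2, which recruits monocytes. Its signal was 70.2 with ES, 25.4 with exercise, 76.4 with ischemia alone and 26.8 with sham, at least 2.33-fold higher with ES. The ES and ischemia arrays were the 2 with Ccl2 above the floor.

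Many matrix genes were higher with ES than with exercise, and their summed signal was highest on the ischemia array. Of 35 genes for fibrillar collagens and their partners, 12 were higher by 2-fold or more, 2 were lower, and the median log2 ratio was 0.71. That sum was 40189.5 on the ES array, 26103 on the exercise array, 45054 on the ischemia array and 25418 on the sham array. Col1a1, the main chain of type I collagen, had a signal of 2385 with ES, 1000.4 with exercise, 3561 with ischemia alone and 1137 with sham, 2.38-fold higher with ES than with exercise and highest on the ischemia array. Among the type VI collagen genes, Col6a2 had a signal of 201 with ES, 55.8 with exercise, 192 with ischemia alone and 87.2 with sham, 3.59-fold higher, but its other probe set gave a log2 ratio of only 0.57, which is under 2-fold. Col6a1 had 1174 with ES, 405 with exercise, 828 with ischemia alone and 394 with sham, 2.9-fold higher, and Col6a3 was 2.21-fold higher. Col5a1, which sets the width of collagen fibrils, was 2.44-fold higher with a signal of 547 with ES, 224 with exercise, 442 with ischemia alone and 232 with sham. Sfrp2 and Cthrc1, secreted proteins of activated fibroblasts, were also higher. Sfrp2 had a signal of 79.4 with ES, 22.9 with exercise, 164 with ischemia alone and 41.3 with sham, at least 2.63-fold higher. Cthrc1 had 81.8 with ES, 33.5 with exercise, 133 with ischemia alone and 35.5 with sham, 2.44-fold higher. Macrophage and endothelial marker sums were higher on the ES array than on the exercise array alongside these genes, and their part in the result was not tested.

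The 2 lower matrix genes were Ccn2 and Col12a1. Ccn2, the connective tissue growth factor induced by tension, had a signal of 605 with ES, 1760.3 with exercise, 958 with ischemia alone and 1415 with sham, 2.91-fold lower with ES. Col12a1, a collagen on the surface of fibrils, had a signal of 69.0 with ES, 152 with exercise, 184 with ischemia alone and 170.2 with sham, 2.2-fold lower. Of 14 fibroblast markers 3 were higher, 0 were lower, and the median log2 ratio was 0.39. Besides Col1a1 these were Thy1, with a signal of 176 with ES, 71.9 with exercise, 146 with ischemia alone and 68.2 with sham, and Pcolce, an enhancer of procollagen processing, with 483 with ES, 211 with exercise, 573 with ischemia alone and 209 with sham. Thy1 was 2.44-fold and Pcolce 2.29-fold higher.

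All 9 tendon markers compared had a ratio below 0, 3 were lower with ES by 2-fold or more, and the median log2 ratio was -0.57. Their summed signal was 1400.2 on the ES array, 2356 on the exercise array, 2548 on the ischemia array and 1624 on the sham array, which put the ES array lowest. Scx, the transcription factor of tendon cells, had a signal of 216 with ES, 536 with exercise, 302 with ischemia alone and 363 with sham, 2.48-fold lower with ES. Fmod, a small proteoglycan of collagen fibrils, had a signal of 234 with ES, 524 with exercise, 678 with ischemia alone and 351 with sham, 2.24-fold lower. Chad, a matrix protein of cartilage and tendon, had a signal of 7.38 with ES, 98.0 with exercise, 68.1 with ischemia alone and 35.5 with sham, at least 3.25-fold lower. Tnmd had a log2 ratio of -0.85 and Comp of -0.57. How much tendon each muscle piece carried was not tested.

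**Figure D4:**
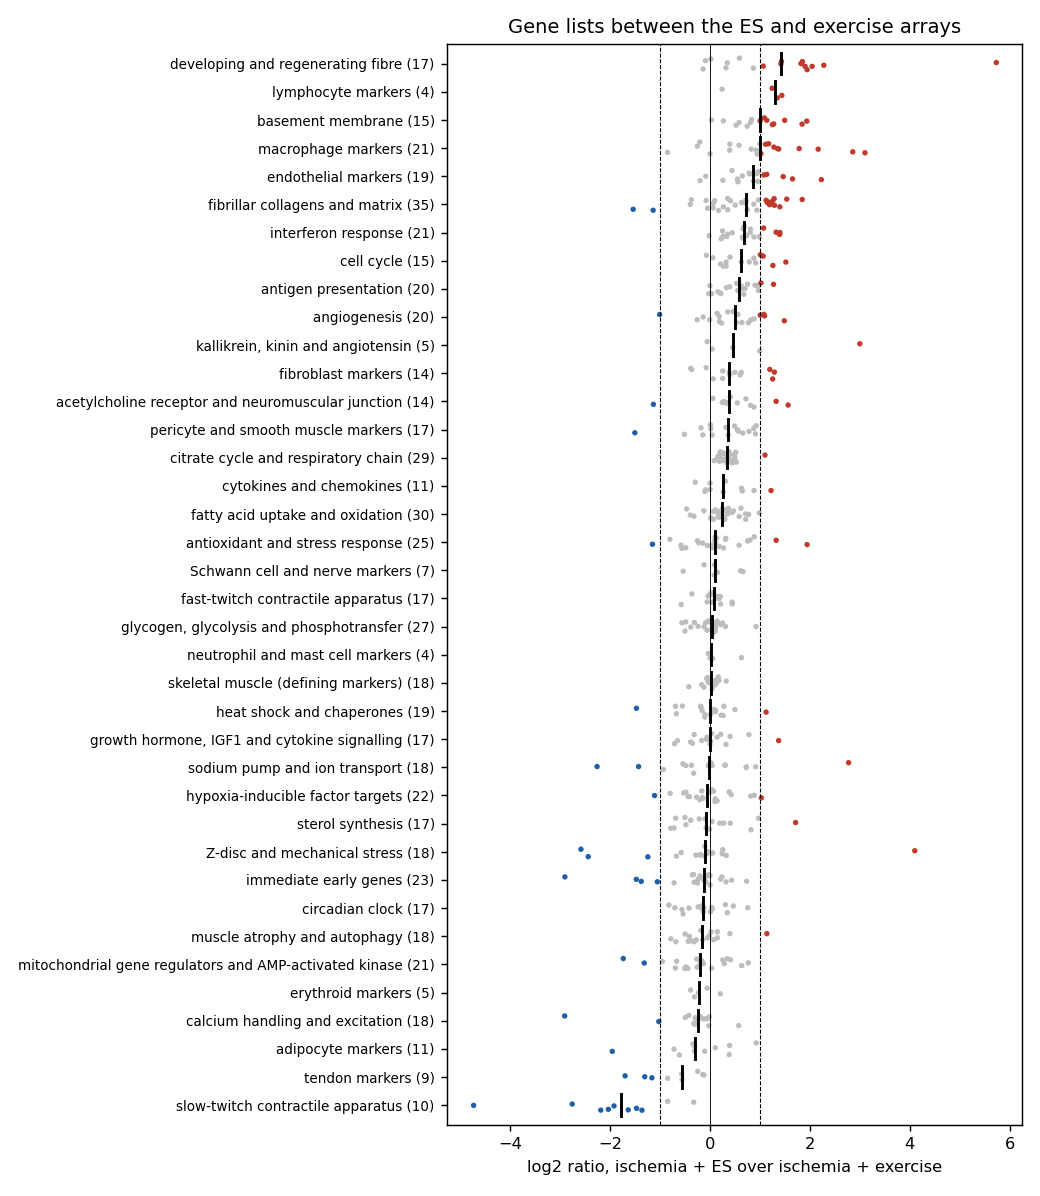
Log2 ratio of ischemia + ES over ischemia + exercise for each gene compared in the 38 gene lists, 1 line per list with the number of genes compared in brackets. Points are genes (red 2-fold or more higher with ES, blue lower, grey within), black ticks are list medians and dashed lines mark 2-fold. Medians run between 1.42 for developing and regenerating fibre at the top and -1.78 for the slow-twitch contractile apparatus at the bottom.

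Some interferon-induced genes were higher with ES. Of 21 compared, 4 were higher by 2-fold or more, 0 were lower, 20 had a ratio above 0, and the median log2 ratio was 0.69. Isg15, a ubiquitin-like protein, had a signal of 175 with ES, 66.3 with exercise, 58.6 with ischemia alone and 58.0 with sham, 2.64-fold higher with ES. Oasl had a signal of 115 with ES, 43.9 with exercise, 42.0 with ischemia alone and 53.2 with sham, 2.62-fold higher. Usp18, the protease that removes Isg15 from proteins, had a signal of 138 with ES, 65.9 with exercise, 55.6 with ischemia alone and 77.9 with sham, 2.1-fold higher. Rsad2, the antiviral enzyme viperin, had a signal of 256 with ES, 102 with exercise, 123 with ischemia alone and 256 with sham, 2.5-fold higher with ES than with exercise but level with sham. Irf7, a factor that amplifies the response, was level at 228 with ES and 231 with exercise.

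The promoter of Rsad2 is printed because that gene was higher with ES and its promoter holds the interferon-stimulated response element, searched as GAAANNGAAA. It lies at chr6:48788121-48788370 on the minus strand in RefSeq GRCr8, 250 bases before the start. The capitals mark the element, which reads on the opposite strand 147 to 138 bases before the start.
Rsad2: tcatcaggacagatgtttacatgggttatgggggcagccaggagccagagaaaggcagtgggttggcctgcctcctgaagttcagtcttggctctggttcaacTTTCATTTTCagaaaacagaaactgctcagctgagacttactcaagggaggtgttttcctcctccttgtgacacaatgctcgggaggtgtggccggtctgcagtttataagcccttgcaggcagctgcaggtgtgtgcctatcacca
The element was found in 11 of 16 interferon-list genes with a promoter in the table (68.8%), against 3.61% of 27457 genes. Irf7 and Ifi27, with log2 ratios of -0.02 and 0.25, were among the 11, so genes with the element did not all reach 2-fold.

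Antigen presentation had 2 of 20 genes higher and 0 lower, against 2.95% and 1.1% of all genes, and a median log2 ratio of 0.59. Both higher genes belong to the class II pathway of antigen-presenting cells. Cd74, the invariant chain, had a signal of 1269.8 with ES, 626 with exercise, 1244 with ischemia alone and 701 with sham, 2.03-fold higher with ES. RT1-Ba, a class II alpha chain, had a signal of 161 with ES, 66.8 with exercise, 173 with ischemia alone and 101 with sham, 2.41-fold higher. For both genes the ES and ischemia arrays were close and stood above the exercise and sham arrays. The class I component B2m had a signal of 6979 with ES, 4752 with exercise, 4589.7 with ischemia alone and 4654 with sham, with a log2 ratio of 0.55, and here the ES array stood alone. RT1 genes are near-identical copies of each other, so a probe set may read more than 1 of them.

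Immediate early genes, which switch on within minutes of a stimulus such as contraction, included 4 of 23 lower with ES and 0 higher, with a median log2 ratio of -0.12. Nr4a3, an orphan nuclear receptor, had a signal of 5.55 with ES, 226 with exercise, 43.0 with ischemia alone and 37.9 with sham, at least 7.5-fold lower with ES. Only the exercise array had much Nr4a3. Its 2 other probe sets were under the floor with ES, so their log2 ratios of -2.10 and -0.08 are bounds. The one at -0.08 had a signal of 31.8 with exercise, just above the floor. Fos, a subunit of the AP-1 factor, had a signal of 115 with ES, 298 with exercise, 127 with ischemia alone and 719 with sham, 2.6-fold lower, and the sham array was by far the highest. Atf3, a stress-induced transcription factor, had a signal of 102 with ES, 283 with exercise, 67.0 with ischemia alone and 259 with sham, 2.78-fold lower. Egr1, a zinc-finger factor, had a signal of 206 with ES, 427 with exercise, 183 with ischemia alone and 242 with sham, 2.08-fold lower. Jun, Nr4a1 and Dusp1 were within 2-fold, with log2 ratios of -0.35, -0.33 and -0.06, and Junb had 0.73.

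The promoter of Egr1 is printed because it is the one promoter in the table among these 4 lower genes. It lies at chr18:26736828-26737077 on the plus strand in RefSeq GRCr8, and the capitals mark 2 CArG boxes, 105 to 96 and 83 to 74 bases before the start.
Egr1: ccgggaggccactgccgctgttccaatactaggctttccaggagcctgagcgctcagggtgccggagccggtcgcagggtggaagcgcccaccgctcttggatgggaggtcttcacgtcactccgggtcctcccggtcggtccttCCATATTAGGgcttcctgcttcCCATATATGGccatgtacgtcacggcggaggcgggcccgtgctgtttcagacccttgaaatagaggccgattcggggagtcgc
A CArG box was found in 4 of 14 immediate early genes with a promoter in the table (28.6%), against 1.62% of all genes, and the cyclic AMP element TGACGTCA also in 4 of 14, against 1.78%. The other 3 with a CArG box were Egr2, Klf6 and Zfp36, with log2 ratios of -0.12, 0.43 and -0.24.

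Heat shock genes and chaperones had 1 of 19 higher, 1 lower and a median log2 ratio of 0.01. Over all genes 2.95% were higher and 1.1% lower, so 1 gene each way says little about the list. Hspa1a, the inducible Hsp70, had a signal of 209 with ES, 580.1 with exercise, 177 with ischemia alone and 443 with sham, 2.78-fold lower with ES, and near-identical gene copies may add to it. Serpinh1, the collagen chaperone of the endoplasmic reticulum, had a signal of 1352 with ES, 621 with exercise, 974 with ischemia alone and 768 with sham, 2.18-fold higher. Antioxidant and stress genes had 2 of 25 higher, which were Cdkn1a and Gadd45a, and 1 lower, with a median of 0.10. The lower gene was Nqo1, a quinone reductase, with a signal of 105 with ES, 233 with exercise, 191 with ischemia alone and 233 with sham, 2.22-fold lower.

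Mitochondrial enzyme genes had small ratios, nearly all within 2-fold. All 29 citrate cycle and respiratory chain genes had a ratio above 0, with a median log2 ratio of 0.34, in a range of 0.08 to 1.10. Only 1 of the 29 passed 2-fold, a share near the 2.95% of all genes, and 0 were lower. That gene was Cox7a1, the muscle isoform of a cytochrome oxidase subunit, with a signal of 592 with ES, 276 with exercise, 205 with ischemia alone and 347 with sham, 2.14-fold higher. Citrate synthase, Cs, had a signal of 6037 with ES, 4224 with exercise, 4012 with ischemia alone and 4324 with sham, a log2 ratio of 0.52, and the succinate dehydrogenase subunit Sdha had 0.50. Fatty acid uptake and oxidation had 0 of 30 genes past 2-fold, 4 with a ratio below 0 and a median of 0.24. Pdk4, the kinase that shuts carbohydrate out of the citrate cycle, had a signal of 5232 with ES, 4569.9 with exercise, 3570.4 with ischemia alone and 2232 with sham, a log2 ratio of 0.20. Glycogen, glycolysis and phosphotransfer had 0 of 27 genes past 2-fold and a median of 0.04.

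None of the regulators of those enzymes was higher by 2-fold. Among 21 mitochondrial gene regulators and subunits of the AMP-activated kinase, 2 were lower with ES and 0 were higher. The shares over all genes were 1.1% and 2.95%, and the list median was a log2 ratio of -0.19. Prkag3, the gamma subunit of the kinase in fast glycolytic fibres, had a signal of 842 with ES, 2100.2 with exercise, 2784 with ischemia alone and 1539 with sham, 2.49-fold lower with ES. Mss51, a muscle protein of mitochondria, had a signal of 98.5 with ES, 328 with exercise, 360.1 with ischemia alone and 227 with sham, 3.34-fold lower. For Prkag3 and Mss51 the ES array was the lowest and the ischemia array the highest of the 4. Ppargc1a, the coactivator PGC-1alpha that exercise induces, had a signal of 334 with ES, 467 with exercise, 249.97 with ischemia alone and 308 with sham, so the exercise array was the highest and the log2 ratio was -0.49.

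Among ion and amino acid transporters, 1 of 18 genes was higher and 2 were lower, against 2.95% and 1.1% of all genes. The list median was a log2 ratio of -0.02. Atp1b4, a muscle protein of the sodium pump beta family that in placental mammals sits at the nuclear envelope, had a signal of 636 with ES, 92.9 with exercise, 199 with ischemia alone and 123 with sham. It was 6.84-fold higher with ES, behind only Myh8, Ankrd1 and Gpnmb among genes above the floor on both arrays. Atp1b2, a true beta subunit of the pump, had a signal of 687 with ES, 1852 with exercise, 1996 with ischemia alone and 1513 with sham, 2.7-fold lower, and its other probe set, under the floor with ES, gave a bound, a log2 ratio of -0.56 or lower. Slc38a1, a glutamine transporter, had a signal of 36.4 with ES, 175 with exercise, 41.6 with ischemia alone and 149.8 with sham, 4.8-fold lower, with the ES and ischemia arrays low and the exercise and sham arrays high.

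Remaining lists held few called genes. Over all genes 2.95% were higher and 1.1% lower, so a single called gene says little about its list. Muscle atrophy and autophagy had 1 of 18 higher and a median log2 ratio of -0.17. The higher gene was Ddit4, an inhibitor of the growth kinase mTOR, with a signal of 436 with ES, 198 with exercise, 377 with ischemia alone and 325 with sham, 2.2-fold higher, and the atrophy ligases Trim63 and Fbxo32 had log2 ratios of 0.15 and -0.32. Klk1, tissue kallikrein, which releases vasodilating kinins, had a signal of 241 with ES, 11.3 with exercise, 36.3 with ischemia alone and 19.9 with sham, at least 8-fold higher. It was 1 of 5 genes compared from the kallikrein, kinin and angiotensin list, whose median was 0.45. Sterol synthesis had 1 of 17 higher and a median of -0.08, the higher gene being the fatty acid desaturase Scd, with a signal of 104 with ES, 31.6 with exercise, 49.5 with ischemia alone and 42.2 with sham, 3.28-fold higher. Of 11 adipocyte markers 1 was lower, 0 were higher and the median was -0.31. The lower gene was the adipocyte hormone Adipoq, with a signal of 31.8 with ES, 124 with exercise, 40.3 with ischemia alone and 42.7 with sham, 3.89-fold lower with ES, and the exercise array was the only high one. Fabp4, shared by fat and endothelium, had a log2 ratio of 0.93. In the circadian clock list (17 compared, median -0.13), the Schwann cell and nerve list (7 compared, median 0.09) and the erythroid list (5 compared, median -0.23), 0 genes passed 2-fold.

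Further genes were among the 15 highest or 15 lowest ratios without being in a list. Fabp5, a fatty acid binding protein of macrophages and endothelium, had a signal of 1095 with ES, 249 with exercise, 410.4 with ischemia alone and 289.7 with sham, 4.4-fold higher with ES. Slpi, a secreted protease inhibitor, had a signal of 161 with ES, 41.5 with exercise, 80.9 with ischemia alone and 46.1 with sham, 3.88-fold higher. Ccdc125 had a signal of 236 with ES, 53.1 with exercise, 86.1 with ischemia alone and 63.9 with sham, 4.44-fold higher. Hpdl, Akr1c14 and Ttc9 were 3.9-fold, 3.86-fold and 3.82-fold higher, although the other probe set of Ttc9 had a log2 ratio of only 0.29. Of genes under the floor on the exercise array, Igsf1 was at least 3.96-fold and Armcx2 at least 3.93-fold higher. The bound of the other Igsf1 probe set was a log2 ratio of at least 0.51.

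On the lower side, Xpo4, a nuclear transport receptor, had a signal of 89.7 with ES, 788 with exercise, 69.0 with ischemia alone and 521 with sham. It was 8.79-fold lower with ES, and its 2 other probe sets gave log2 ratios of -1.88 and -1.09. The first of these is a bound, as that probe set was under the floor with ES. Prox1, a homeobox factor that slow fibres express, had a signal of 49.2 with ES, 225 with exercise, 26.7 with ischemia alone and 129.8 with sham, 4.57-fold lower. Mettl21c, a lysine methyltransferase of muscle, had a signal of 76.9 with ES, 281 with exercise, 153 with ischemia alone and 296 with sham, 3.66-fold lower. Slc2a13, a myo-inositol transporter, was 3.21-fold lower with a signal of 125 with ES, 400.2 with exercise, 104 with ischemia alone and 251 with sham. Xpo4, Prox1 and Slc2a13 had low ES and ischemia signals and high exercise and sham signals, as the slow-fibre genes did.

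Among genes under the floor on the ES array, Cda, cytidine deaminase, had a signal of 10.1 with ES, 254 with exercise, 20.8 with ischemia alone and 187 with sham, at least 8.42-fold lower. The anion exchanger Slc4a3 had a signal of 29.6 with ES, 153 with exercise, 41.1 with ischemia alone and 78.7 with sham, at least 5.06-fold lower. Adgrb2, an adhesion receptor, had a signal of 6.47 with ES, 139.9 with exercise, 150.2 with ischemia alone and 103 with sham, at least 4.65-fold lower, and the ES array was the only one under the floor. Vtcn1 and Slc4a11 were at least 3.76-fold and 3.33-fold lower.

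The 2 remaining arrays show where the called genes stood without treatment. The ES array was the highest of the 4 in 278 of the 298 higher genes and the lowest of the 4 in 74 of the 111 lower genes. The exercise array was the lowest in 192 of the 298 and the highest in 78 of the 111. ES stood 2-fold or more away from all 3 other arrays in 90 higher and 22 lower genes, exercise in 2 and 6. The genes were called on the ES and exercise arrays, so an extreme place of either follows in part from the calling rule. The same shares over all genes were not computed. Of the 298 higher genes, 179 (60.1%) had both the ischemia and the sham array on the exercise side of the log2 midpoint between ES and exercise, against 47.7% of all genes with a ratio other than 0. Another 94 (31.5%) had ischemia on the ES side and sham on the exercise side, against 19.3% of all genes. Of the 111 lower genes, 53 (47.7%) had this second arrangement and 37 (33.3%) the first.

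The ischemia and sham arrays share no sample with the comparison, so their own ratio can be set beside it. Of the 298 genes higher with ES, 37 (12.4%) were also 2-fold higher on the ischemia array than on the sham array, and 3 were 2-fold lower. Over all genes 0.783% were higher and 0.862% lower. Of the 111 genes lower with ES, 41 (36.9%) were 2-fold lower with ischemia than with sham, and 0 were higher. The 37 make up 46.8% of the 79 genes higher with ischemia, and the 41 make up 47.1% of the 87 lower. The median log2 ratio of ischemia over sham was 0.37 in the higher genes, -0.41 in the lower genes and 0.00 in all genes. By list, that median was -2.77 for the slow-twitch genes, 0.90 for macrophage markers and 0.87 for the matrix. It was smaller for developing fibre genes at 0.12, for endothelial markers at 0.16 and for the basement membrane at 0.28.

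**Figure D5:**
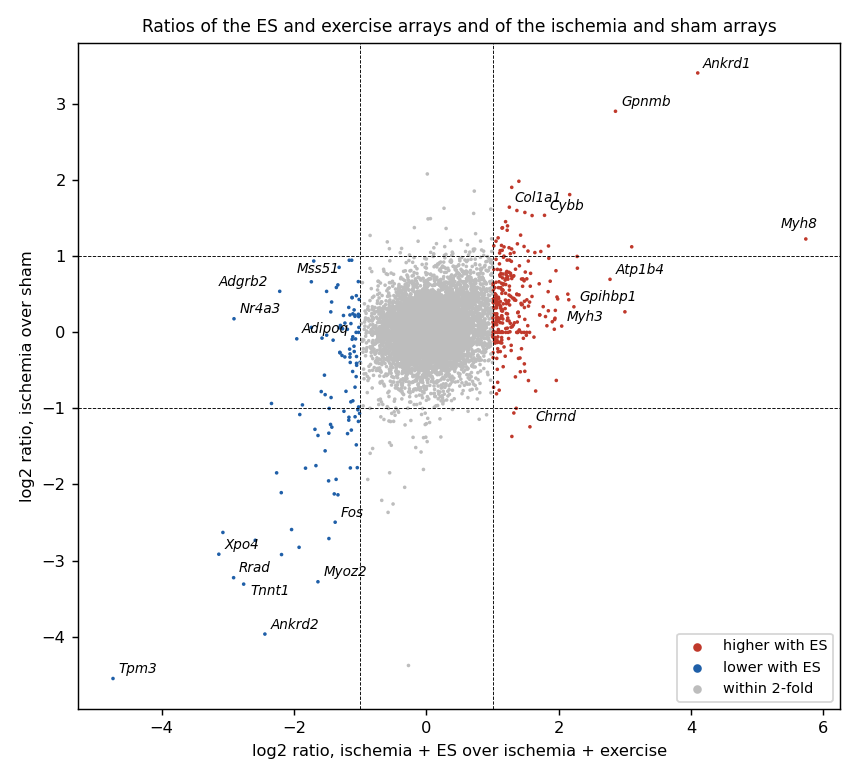
Log2 ratio of the ischemia array over the sham array (vertical) against the log2 ratio of the ischemia + ES array over the ischemia + exercise array (horizontal) for the 10092 genes compared. Red and blue points are the 298 higher and 111 lower genes, and dashed lines mark 2-fold. Tpm3, Tnnt1, Ankrd2 and Myoz2 lie at the lower left and Ankrd1 and Gpnmb at the upper right, while Myh3, Gpihbp1 and Atp1b4 lie to the right within 2-fold on the vertical axis.

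Some called genes had other probe sets above the floor. Of the 298 higher genes, 55 had such probe sets, and in 50 of them every one pointed the same way. In 5 genes (Arhgap27, Arsb, Epor, Rnf215 and Tspan9, named after their values were seen) another probe set had the opposite sign. None of these passed 2-fold on floored signals. For Arhgap27, Epor and Tspan9 that probe set was under the floor with ES. Its log2 ratio is then a bound, at -0.95, -0.47 and -0.32 or lower. All 27 such lower genes had every probe set in the same direction. At least 1 other probe set passed 2-fold itself in 20 of the 55 and 10 of the 27. The share of genes called was 7.51% of 1932 genes whose brighter signal was 2 to 4 times the floor, 4.11% of 3818 at 4 to 16 times and 4.09% of 2619 above that, and a gene under 2 times the floor could not be called.

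Just inside the threshold were Ifi30 and Itga6, 2.001-fold and 2.004-fold higher with ES, and Cyp26b1 and Fgf1, 2.003-fold and 2.013-fold lower. Just outside were Bcl6b, 1.999-fold higher, and Dyrk2, 1.978-fold lower. The other probe set of Cyp26b1 had a log2 ratio of -0.01. Probe sets without a single gene symbol, 316 of them with several symbols and the rest with none, had 65 higher and 31 lower among 3877 compared (2.48%).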

How the data were processed

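RNA of skeletal muscle from 4 groups of rats was measured on 4 single-colour arrays, 1 per group. The authors deposited 1 linear intensity per probe set and array, and MAS5 is named, without a version, in the submitters' processing notes. MAS5 scales each array to a common mean, so a difference in total mRNA cannot be seen, and dim probe sets are noisy. Detection calls were not used here. Of 31099 probe sets, 20832 carried 1 gene symbol in the platform annotation of 2016, 436 several and 9831 none, among them 57 controls. In RefSeq (assembly GRCr8) 20764 of the 20832 were found, and 0 symbols differed.

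Intensities were brought to one trimmed mean (2% off each end), floored at the 50th percentile of the 4 arrays (30.1) and turned to log2, and each gene was read from its brightest probe set on average. Of 14218 genes, 10092 exceeded the floor on 1 array or more and were compared, and 189 of them were at the floor on both the ES and the exercise array. The alternatives were quantile and cyclic loess scaling, other floors and thresholds, log2(signal + 16), and other treatments of probe sets. Python 3.11.15, pandas 2.3.3, R 4.3.3 and limma 3.58.1 were used, and the counting was tested on simulated data. Precision is limited by the number of arrays.

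The genes named were the 15 highest and 15 lowest ratios above the floor on both arrays, the 6 highest bounds each way, up to 6 called members per list and direction, and 14 fixed genes. Further members are named with their list. The comparison and the 38 lists were chosen with earlier results of these data known. Promoters were the 250 bases before the start in the RefSeq table, which held 320 of the 409 called genes. They were searched on both strands for 5 motifs.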

Additional observations from a re-analysis of the deposited data

How the results depend on the processing

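The counts of 298 higher and 111 lower genes depended mainly on the floor and on the fold. With the floor at the 30th percentile they were 548 and 252, and with the floor at the 70th percentile 134 and 63. At 1.5-fold they were 1057 and 464, and at 3-fold 40 and 27. Under the other alternatives the higher count lay between 246 and 298 and the lower count between 102 and 119. Quantile scaling shared 257 of its 259 higher and 110 of its 119 lower genes with the counts above, and cyclic loess scaling 254 of 255 and 111 of 116. The use of log2(signal + 16) without a floor shared only 198 of its 246 higher and 83 of its 108 lower genes, so 100 of the 298 and 28 of the 111 were not called there. Higher genes made up 59.7% of the called genes at 3-fold, against 72.9% at 2-fold, and 68.0% to 73.1% under the rest. The median of all genes lay between 0.00 and 0.04. Of the medians of 41 gene lists, 6 had another sign or moved to or from 0 under quantile scaling and 3 under cyclic loess scaling, all of them 0.07 or less in size as reported, the fast-twitch, muscle marker and glycolysis lists among the 6. The 29 citrate cycle and respiratory chain genes and the 15 basement membrane genes stayed above 0, and the 9 tendon markers below 0, under both scalings. Leaving out genes with another probe set of opposite sign, an alternative chosen after seeing the data, gave 293 and 111. Of 109 called genes picked by the naming rule, 71 passed 2-fold under every alternative that measured them. Of the 854 values of these 109 genes, 803 kept the direction and 2-fold, 51 kept the direction under 2-fold and 0 reversed. Called genes named beyond the rule, such as Myog and Tfrc, are not in these counts. No paired analysis was possible because each group has 1 array. Leaving out an array leaves no comparison. Each difference is between 2 arrays, and the spread between animals is unknown.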

Other observations

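A list of imprinted genes, drawn up after values were seen, had 8 of 21 genes compared higher with ES and 0 lower. The shares over all genes were 2.95% and 1.1%. The median log2 ratio was 0.40 in the list and 0.03 over all genes. As the list followed the values, its count and median only describe them. Imprinted genes are expressed from one parental copy, and many act in fetal growth. The list includes Igf2 and Cdkn1c, described above, and Dlk1, all of which also count in the list of developing and regenerating fibre. Dlk1, a membrane protein of developing muscle, had a signal of 106 with ES, 23.4 with exercise, 32.0 with ischemia alone and 24.1 with sham, at least 3.53-fold higher with ES. The paternally expressed Plagl1, a zinc-finger factor, had a signal of 346 with ES, 105 with exercise, 158 with ischemia alone and 75.6 with sham, 3.32-fold higher with ES. Mest had a signal of 266 with ES, 81.5 with exercise, 172 with ischemia alone and 111 with sham, 3.26-fold higher. The maternally expressed long RNA Meg3, from the same locus as Dlk1, had a signal of 249 with ES, 91.4 with exercise, 103 with ischemia alone and 80.0 with sham, 2.73-fold higher. Its other probe set, under the floor with exercise, gave a log2 ratio of at least 1.70. Apeg3, an antisense RNA, had a signal of 543 with ES, 198 with exercise, 320.4 with ischemia alone and 197 with sham, 2.75-fold higher, and its other probe set gave 1.40. The ES array was the highest of the 4 for each of these genes, as it was for 278 of all 298 higher genes. Gatm, the first enzyme of creatine synthesis, was 2.18-fold higher with a signal of 269 with ES, 123 with exercise, 186 with ischemia alone and 109 with sham. H19 and Grb10 were within 2-fold, with log2 ratios of 0.59 and 0.21, and Slc38a4, an amino acid transporter, had -0.93.

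A list of iron and haem genes, also drawn up after values were seen, had 3 of 17 higher with ES and 0 lower. The shares over all genes were 2.95% and 1.1%. Its median log2 ratio was 0.14, and here too count and median only describe the values. Tfrc, the transferrin receptor that brings iron into cells, had a signal of 8581 with ES, 3219 with exercise, 3756 with ischemia alone and 4744 with sham, 2.67-fold higher with ES, and its other probe set gave a log2 ratio of 1.98. Alas1, the first enzyme of haem synthesis, had a signal of 1443 with ES, 506 with exercise, 629 with ischemia alone and 646 with sham, 2.85-fold higher. Slc40a1, the iron exporter ferroportin, which macrophages express, had a signal of 188 with ES, 83.9 with exercise, 137 with ischemia alone and 105 with sham, 2.24-fold higher. For Tfrc and Alas1 the exercise array was the lowest of the 4. The later enzymes of haem synthesis were close to level, with log2 ratios of 0.15 for Alad, 0.00 for Urod, -0.11 for Cpox and 0.14 for Fech.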
